A study of Mus musculus with 4 samples.

Results

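The genes described here encode the Wnt ligands, the proteins that process them, their Frizzled and LRP receptors, secreted antagonists, the cytoplasmic transduction machinery, the TCF/LEF transcription factors and the feedback inhibitors of the pathway. They were taken by gene symbol from the GENCODE vM21 annotation of GRCm38, among protein-coding genes, and 56 of the 37437 genes in the files met the rule. The RNA came from primary mouse cortical culture in which an adeno-associated virus vector carried a knockdown of Ctcf (shCTCF) or, as control, of the bacterial gene lacZ (shLAC), and each group had 2 libraries. shCTCF was compared with shLAC. CTCF is a zinc finger protein that holds chromatin loops together with cohesin. All 4 libraries therefore came from virus-treated cultures. The strain and age of the mice, the days after infection, the viral promoter and any pooling of animals are not stated in the labels. Nothing in the labels says that replicates were separate cultures, so p-values reflect only how far these libraries differed among themselves, and that spread may be technical.

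Wnt proteins are lipid-modified by the acyltransferase Porcn and carried to the cell surface by Wls. They bind a Frizzled receptor together with Lrp5 or Lrp6, Dishevelled proteins relay the signal, and the destruction complex of Axin, Apc and the kinase Gsk3b then no longer marks beta-catenin (Ctnnb1) for degradation. Beta-catenin enters the nucleus and acts with TCF/LEF factors on targets such as Axin2, which feeds back on the pathway. In cortex, Wnt signalling is known for its part in progenitor growth, dendrite and synapse formation and the guidance of brain vessels.

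Levels are given in TPM, a length-corrected share of all transcripts that can be compared between genes. In shLAC replicate 2, 13 satellite-like predicted genes held 20.2% of TPM, against 0.405% to 1.86% in the other libraries, and since TPM sums to a fixed total the shares of other genes were lower there. Levels below are therefore scaled TPM unless named as deposited or unscaled, divided by a median-ratio factor per library of 0.833 to 1.1. Differences are log2 fold changes of scaled TPM + 1, shCTCF minus shLAC, tested with limma over the 12816 genes that had at least 1 TPM as deposited, before scaling, in at least 2 libraries, with Benjamini-Hochberg adjustment and a threshold of 0.05. A second limma fit, called the coding-gene fit, was limited to 11268 protein-coding genes with a transcript of 300 nt or more. Depth is unknown, because TPM does not keep it. An exact permutation test of 2 against 2 libraries cannot give a two-sided p below 1 in 3. Ctcf itself was at 8.14 and 8.78 scaled TPM in shLAC and at 3.25 and 3.39 in shCTCF, with both knockdown libraries below both controls (log2 fold change -1.13 with SE 0.0616, limma adjusted p = 0.0173). That call was lost over all tested genes without shLAC replicate 2 or either shCTCF library (limma adjusted p up to 0.107), and it held in the coding-gene fit without each of the 4.

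Markers of the culture were checked beside these genes. The summed level of 6 pan-neuronal markers lay between 1060 and 1115 scaled TPM in the 4 libraries, and 1 of them, Rbfox3, rose in the coding-gene fit (log2 fold change 0.25, limma adjusted p = 0.0464). The sum of 10 astrocyte markers was 136.2 and 113.8 in shLAC and 110.1 and 87.6 in shCTCF, and 8 of the 9 tested had a negative log2 fold change. Of these, Aqp4 fell to 36.8% of control (limma adjusted p = 0.0139 in the coding-gene fit) and Slc1a3 to 69.2% (0.0195). The sum of 8 excitatory neuron markers was 206.2 and 214.2 in shLAC and 247.2 and 237.7 in shCTCF. Of the 8, 5 had a positive log2 fold change and 3, Bcl11b, Neurod6 and Neurod2, a negative one, and none was called in either fit. The sum of 7 inhibitory neuron markers was 227.6 and 216.8 in shLAC and 230.0 and 231.4 in shCTCF. Of the 6 tested, 5 had a positive log2 fold change and 1, Npy, a negative one. Among them Slc32a1 rose to 132% of control (limma adjusted p = 0.0429 in the coding-gene fit). Dcn, the only 1 of 6 fibroblast markers that was tested, fell to 61.7% (limma adjusted p = 0.0206 in that fit). The other 5 were at 0.156 scaled TPM or less in every library. They went both ways, from 69.6% of control for Lum to 148% for Col1a2. Endothelial markers summed to at most 0.564, with Cldn5 listed at 0 in all 4 libraries. The part of these shifts in the Wnt results was not tested. In bulk RNA, fewer cells of a type and less RNA per cell cannot be told apart.

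In the coding-gene fit, 5 of the 25 tested genes among the 56 rose and 0 fell: Gsk3b, Apc, Dvl1, Fzd4 and Wnt9a. Over all tested genes, Gsk3b alone rose. Beside the 5 calls, 6.07% of the 11268 genes in the coding-gene fit were called, 2.55% higher and 3.52% lower. Beside the 1 call, 1.05% were called over all tested genes, 0.367% higher and 0.679% lower. In unscaled TPM 3 were called, Wnt9a, Fzd4 and Dvl1, all higher, beside 2.82% of all genes, 1.92% higher and 0.905% lower. Wnt9a and Fzd4 are among the 200 tested genes under 1 TPM in both shLAC libraries. Of those 200, 23.0% were called in unscaled TPM.

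Of the 56 genes, 25 passed the expression filter and 31 did not. Fzd4 and Wnt9a had under 1 TPM in both shLAC libraries, so they could pass only through shCTCF and had to be higher. Of the 105 coding genes under 1 TPM in both shLAC libraries, 14.3% were called. Among the 23 genes with at least 1 TPM in all 4 libraries, 1 rose over all tested genes, 3 rose in the coding-gene fit and 1 rose in unscaled TPM. Groups did not overlap for 15 of these 23, 11 higher and 4 lower in shCTCF, against 53% of all tested genes, 27.6% higher and 25.4% lower. A positive log2 fold change was found for 19 of the 23, with a median of 0.07, against 50.5% of all tested genes and a median of 0.00.

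**Figure D1:**
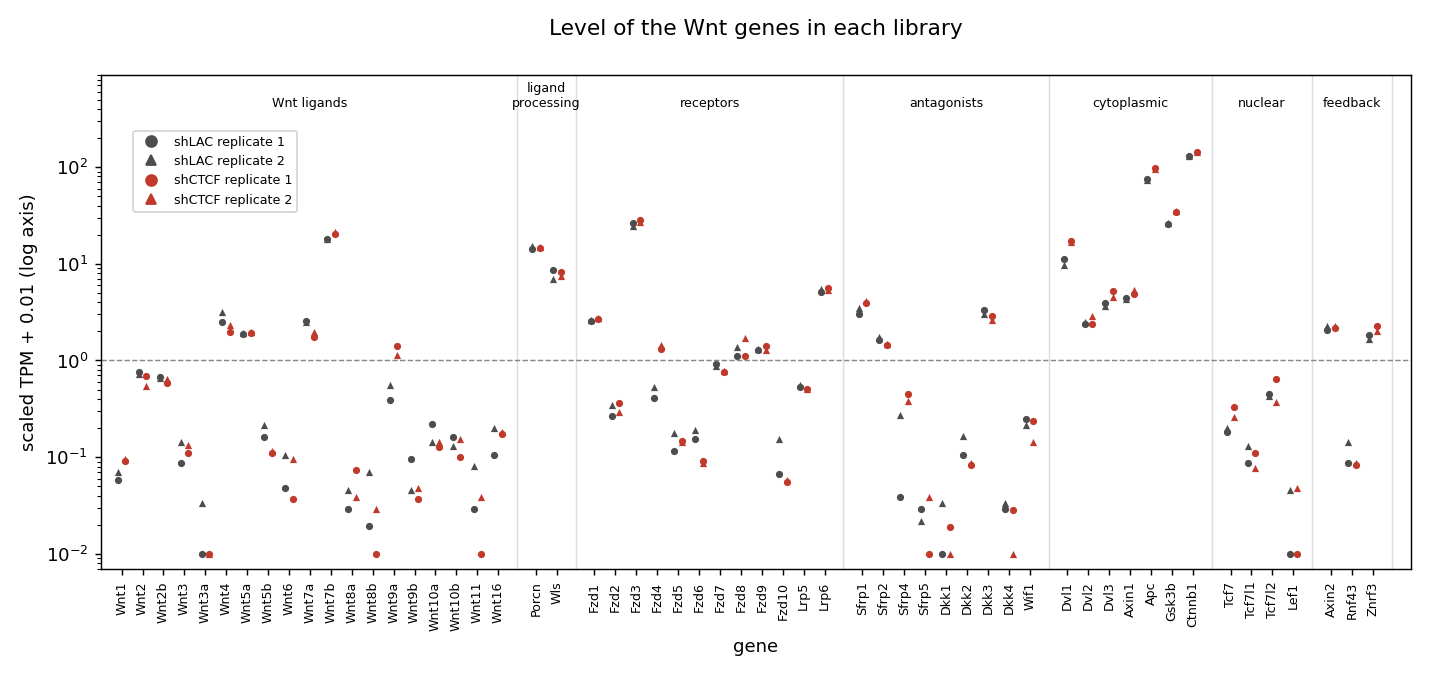
Scaled TPM + 0.01 on a log axis for each of the 56 genes in each of the 4 libraries, ordered by role, with a dashed line at 1 TPM. The cytoplasmic genes Ctnnb1 and Apc stand highest, and the 4 nuclear factors lie below the line in every library.

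Promoter windows of the genes that rose are shown before their values, since CTCF is a DNA-binding protein. They illustrate the called genes, and nothing is drawn from their shared direction, which the filter fixed for Fzd4 and Wnt9a. The RefSeq promoter table (GRCm38.p6) held 38 of the 56 genes, with 48 start sites, and Apc was not among them. The window printed is the 250 bases before the start site, 5′ to 3′ on the gene's strand, with CG dinucleotides in capitals. All 4 lie on the + strand, Gsk3b at chr16:38088751-38089000, Dvl1 at chr4:155847152-155847401, Fzd4 at chr7:89404116-89404365 and Wnt9a at chr11:59306680-59306929.
Gsk3b: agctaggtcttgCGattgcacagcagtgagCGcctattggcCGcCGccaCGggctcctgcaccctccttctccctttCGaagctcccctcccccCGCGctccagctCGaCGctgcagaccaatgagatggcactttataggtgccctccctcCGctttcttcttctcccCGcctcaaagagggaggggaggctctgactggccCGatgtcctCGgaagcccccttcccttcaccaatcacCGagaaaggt
Dvl1: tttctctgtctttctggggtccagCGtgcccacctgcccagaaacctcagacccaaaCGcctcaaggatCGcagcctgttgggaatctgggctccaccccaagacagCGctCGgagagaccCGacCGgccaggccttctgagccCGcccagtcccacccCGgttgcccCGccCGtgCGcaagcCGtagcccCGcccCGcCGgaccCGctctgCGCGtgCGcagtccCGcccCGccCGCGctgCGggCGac
Fzd4: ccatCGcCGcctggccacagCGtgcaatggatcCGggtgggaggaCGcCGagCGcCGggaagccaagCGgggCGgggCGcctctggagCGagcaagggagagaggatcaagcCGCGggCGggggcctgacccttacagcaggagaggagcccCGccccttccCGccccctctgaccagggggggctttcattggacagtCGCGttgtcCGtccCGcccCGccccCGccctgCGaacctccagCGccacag
Wnt9a: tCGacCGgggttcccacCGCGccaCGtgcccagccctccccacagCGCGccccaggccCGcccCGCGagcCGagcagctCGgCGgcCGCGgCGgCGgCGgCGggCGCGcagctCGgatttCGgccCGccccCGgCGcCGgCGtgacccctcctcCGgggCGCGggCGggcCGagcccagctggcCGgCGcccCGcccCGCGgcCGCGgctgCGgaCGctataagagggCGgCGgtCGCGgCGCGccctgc

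The windows held 15, 26, 25 and 48 CG dinucleotides for Gsk3b, Dvl1, Fzd4 and Wnt9a, against a median of 6 over 32851 promoters in the table and of 20.5 over the 48 windows of the Wnt genes. As many as in Wnt9a were found in 0.186% of all windows. A core of the CTCF motif (CC, 3 bases of any kind, AG, 2 of any kind, GGC), searched on both strands, had no match in these 4 windows. It was found in 8 of the 48 windows of the Wnt genes (16.7%), at 7 genes, and in 7.17% of all windows. Median GC content was 66.6% over the 48 windows and 52.4% over all, and its part in this difference was not tested. The TCF/LEF core ATCAAAG, also searched on both strands, was in 2 of the 48 (4.17%), at Wnt11 and Wnt5b, and in 3.21% of all. Axin2, the pathway's own feedback target, had a CTCF core match that begins 135 bases before its start site, shown in capitals (chr11:108920099-108920348, + strand).
Axin2: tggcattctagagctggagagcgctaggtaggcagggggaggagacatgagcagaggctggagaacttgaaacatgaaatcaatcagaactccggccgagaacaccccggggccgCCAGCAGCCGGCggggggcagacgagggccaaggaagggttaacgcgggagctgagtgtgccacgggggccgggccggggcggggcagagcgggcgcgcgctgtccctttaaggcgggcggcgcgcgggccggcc
A match to these letters is a description of the sequence, and binding was not measured.

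Most Wnt ligand genes were at low levels. Of the 19, 5 were tested and 1 rose, in the coding-gene fit alone of the scaled fits, beside 2.55% of all genes called higher there. Wnt7b, a ligand made by cortical neurons, carried 66.7% of the summed ligand level. It was at 18.1 and 18 scaled TPM in shLAC and at 20.2 and 21.4 in shCTCF, with both shCTCF libraries higher (log2 fold change 0.19, SE 0.0489), and it did not pass (limma adjusted p = 0.153, 0.0858 in the coding-gene fit). Wnt7a, which shares receptors with Wnt7b, was at 2.55 and 2.51 in shLAC and at 1.74 and 1.98 in shCTCF. Both shCTCF libraries were lower by a log2 fold change of -0.30 (SE 0.0723), which did not pass either (limma adjusted p = 0.14, 0.0678 in the coding-gene fit). The 2 values thus went in opposite directions without either passing.

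Wnt9a (ENSMUSG00000000126, chromosome 11, 59306928 to 59333552, + strand, GRCm38) was the ligand gene that rose. It was at 0.384 and 0.552 scaled TPM in shLAC and at 1.41 and 1.13 in shCTCF, 271% of the control mean. Of the 105 coding genes under 1 TPM in both shLAC libraries, 14.3% were called. Wnt9a, among these, passed the filter through shCTCF alone and so had to be higher. The log2 fold change was 0.63 (SE 0.107 and limma adjusted p = 0.09, and in the coding-gene fit SE 0.1 and 0.0195), and the + 1 offset makes it smaller than the ratio of levels. The coding-gene call was lost without shCTCF replicate 1 (limma adjusted p = 0.108) or shCTCF replicate 2 (0.0779). Wnt9a adjoins Wnt3a, with a gap of 16176 bp and 0 coding genes between them. Wnt3a stayed at or below 0.024 scaled TPM in all 4 libraries. The nearest tested coding neighbours, chosen after the values were seen, were Arf1 at 78658 bp with a log2 fold change of 0.01 and Snap47 at 73582 bp with 0.06, and neither passed.

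The other ligand genes did not pass. Wnt4, a ligand best known from kidney and gonad development, was at 2.47 and 3.19 scaled TPM in shLAC and at 1.95 and 2.32 in shCTCF (log2 fold change -0.28, limma adjusted p = 0.294). Both shCTCF libraries were lower, and the log2 fold change ran from -0.42 without shLAC replicate 1 to -0.15 without shLAC replicate 2. Wnt5a, the main noncanonical ligand, was at 1.86 and 1.92 and at 1.9 and 1.95, and the groups overlapped. Its log2 fold change of 0.02 had a 95% interval from -0.15 to 0.19. The remaining 14 ligand genes, Wnt1, Wnt3 and Wnt8b among them, lay between 0 and 0.748 scaled TPM and were not tested. Neither gene for ligand processing passed. Porcn was at 14.3 and 15.3 in shLAC and at 14.7 and 14.9 in shCTCF (log2 fold change 0.00, 95% interval -0.14 to 0.14). Wls was at 8.71 and 6.89 and at 8.23 and 7.42, with a wider interval of -0.31 to 0.33. Wls shares its span and strand with Gm43307, a predicted transcript, so its reads are uncertain.

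Among 12 receptor genes 6 were tested and 1 rose in the coding-gene fit, beside 2.55% of all genes called higher there. The most abundant receptor genes did not pass. Fzd4 (ENSMUSG00000049791, chromosome 7, 89404355 to 89413134, + strand, GRCm38) encodes the receptor for norrin and Wnt ligands that is best known from retinal and brain vessels. It was at 0.403 and 0.516 scaled TPM in shLAC and at 1.31 and 1.44 in shCTCF, 299% of the control mean. Both shCTCF libraries were above both controls, which the filter fixed, since Fzd4 passed it through shCTCF alone. Among all coding genes under 1 TPM in both shLAC libraries, 14.3% were called. The log2 fold change of Fzd4 was 0.70 (SE 0.0846 and limma adjusted p = 0.0578, and in the coding-gene fit SE 0.0845 and 0.0085). The coding-gene call was lost without shCTCF replicate 2 (limma adjusted p = 0.0798). Endothelial markers stayed near 0 in both groups, as given above, and which cells carried Fzd4 was not tested. Tmem135 begins 133 bp away on the other strand and had a log2 fold change of 0.08 (limma adjusted p = 0.417).

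Fzd3, a receptor known for axon guidance, carried 66.4% of the summed receptor level. It was at 26.6 and 24.8 scaled TPM in shLAC and at 28.5 and 27.2 in shCTCF (log2 fold change 0.11, 95% interval -0.04 to 0.27). Lrp6, the main co-receptor here, was at 5.13 and 5.46 and at 5.61 and 5.37, with overlapping groups and an interval from -0.11 to 0.20. Its paralog Lrp5 lay at 0.495 to 0.552 scaled TPM and was not tested. Fzd1, Fzd8 and Fzd9 had log2 fold changes of 0.06, 0.10 and 0.03, and none passed. The 6 receptor genes under the filter lay between 0.0456 and 0.911 scaled TPM.

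The secreted antagonists, which bind Wnt proteins or block LRP receptors, did not pass in either fit. Sfrp1, a Frizzled-like decoy, was at 3 and 3.49 scaled TPM in shLAC and at 3.91 and 4.11 in shCTCF, both higher (log2 fold change 0.24, 95% interval 0.03 to 0.45, limma adjusted p = 0.217). Dkk3, a divergent Dickkopf protein, was at 3.29 and 3.05 and at 2.87 and 2.63, both lower (log2 fold change -0.15, limma adjusted p = 0.321). Sfrp2 had a log2 fold change of -0.12 after scaling and 0.00 as deposited. The other 6, Dkk1 and Wif1 among them, lay between 0 and 0.438 scaled TPM.

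The cytoplasmic genes were the most abundant and held 3 of the 5 calls. All 7 had a positive log2 fold change, with a median of 0.30, and for 6 of them both shCTCF libraries lay above both controls. Over all tested genes 50.5% had a positive log2 fold change, the median was 0.00, and 27.6% had both shCTCF libraries above. In the coding-gene fit 3 of the 7 rose and 4 did not pass, beside 2.55% of all genes called higher there. Their summed level was 254.6 and 251.4 scaled TPM in shLAC and 305.7 and 305.5 in shCTCF, of which Ctnnb1 gave 49.2%.

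Gsk3b (ENSMUSG00000022812, chromosome 16, 38089001 to 38246084, + strand, GRCm38), the kinase that phosphorylates beta-catenin, was at 25.9 and 26.4 scaled TPM in shLAC. In shCTCF it was at 34.5 and 34.9, 133% of the control mean, and the groups were far apart relative to their spread. Its log2 fold change was 0.40 (SE 0.0416 and limma adjusted p = 0.0448, and in the coding-gene fit SE 0.0467 and 0.00778). The call over all tested genes was lost without any 1 of the 4 libraries (limma adjusted p from 0.103 to 0.314), with the fold change between 0.38 and 0.40. In the coding-gene fit it was lost without shCTCF replicate 1 (limma adjusted p = 0.0553) or shCTCF replicate 2 (0.078). It did not pass in unscaled TPM (0.59 on the log2 scale, limma adjusted p = 0.189), and with the replicate number as a block limma adjusted p was 0.0861. Its paralog Gsk3a had a log2 fold change of 0.05 (limma adjusted p = 0.549).

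Apc (ENSMUSG00000005871, chromosome 18, 34220924 to 34322552, + strand, GRCm38), the scaffold of the destruction complex, was at 75.8 and 73.3 scaled TPM in shLAC. In shCTCF it was at 98.2 and 96.2, 130% of the control mean. Its log2 fold change of 0.38 (SE 0.0449) passed in the coding-gene fit (limma adjusted p = 0.00934) and not over all tested genes (0.0557). The coding-gene call was lost without shCTCF replicate 1 (limma adjusted p = 0.0696) or shCTCF replicate 2 (0.0798). Srp19, its tested neighbour at 8295 bp, had a log2 fold change of -0.27 (limma adjusted p = 0.167).

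Dvl1 (ENSMUSG00000029071, chromosome 4, 155847402 to 155859303, + strand, GRCm38), a Dishevelled protein that relays the receptor signal, was at 11.3 and 9.72 scaled TPM in shLAC. In shCTCF it was at 17.4 and 16.8, 162% of the control mean. The log2 fold change was 0.65 (SE 0.0822 and limma adjusted p = 0.0612, and in the coding-gene fit SE 0.0761 and 0.00754). It also passed in unscaled TPM (0.84 on the log2 scale, limma adjusted p = 0.00468). In unscaled TPM, however, 87.0% of all tested genes had a positive log2 fold change, with a median of 0.17. The coding-gene call of Dvl1 was lost without shCTCF replicate 2. Its neighbours Aurkaip1 and Cptp had log2 fold changes of 0.04 and 0.17, and neither passed. Dvl1 overlaps Tas1r3 on the other strand by 36 bp, and Tas1r3 was at most at 0.32 TPM as deposited.

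The other Dishevelled and destruction complex genes did not pass. Dvl3 was at 3.96 and 3.65 scaled TPM in shLAC and at 5.24 and 4.57 in shCTCF, both higher (log2 fold change 0.30, limma adjusted p = 0.168). Dvl2 was at 2.36 and 2.51 and at 2.35 and 2.88, and the groups overlapped. Acadvl overlaps Dvl2 by 2119 bp on the other strand. As deposited, Acadvl was at 8.03 and 5.82 TPM in shLAC and at 9.33 and 8.06 in shCTCF, so the reads of Dvl2 are uncertain. Axin1, the limiting scaffold, was at 4.41 and 4.34 and at 4.82 and 5.36 (log2 fold change 0.18, limma adjusted p = 0.251). Ctnnb1, beta-catenin itself, was the most abundant of the 56 genes at 130.8 and 131.5 in shLAC and 143.2 and 144.8 in shCTCF. Both shCTCF libraries were higher, by a log2 fold change of 0.13 (95% interval 0.02 to 0.25, limma adjusted p = 0.204). Whether the fold changes of Dvl1, Dvl2 and Dvl3 differ from each other was not tested.

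**Figure D2:**
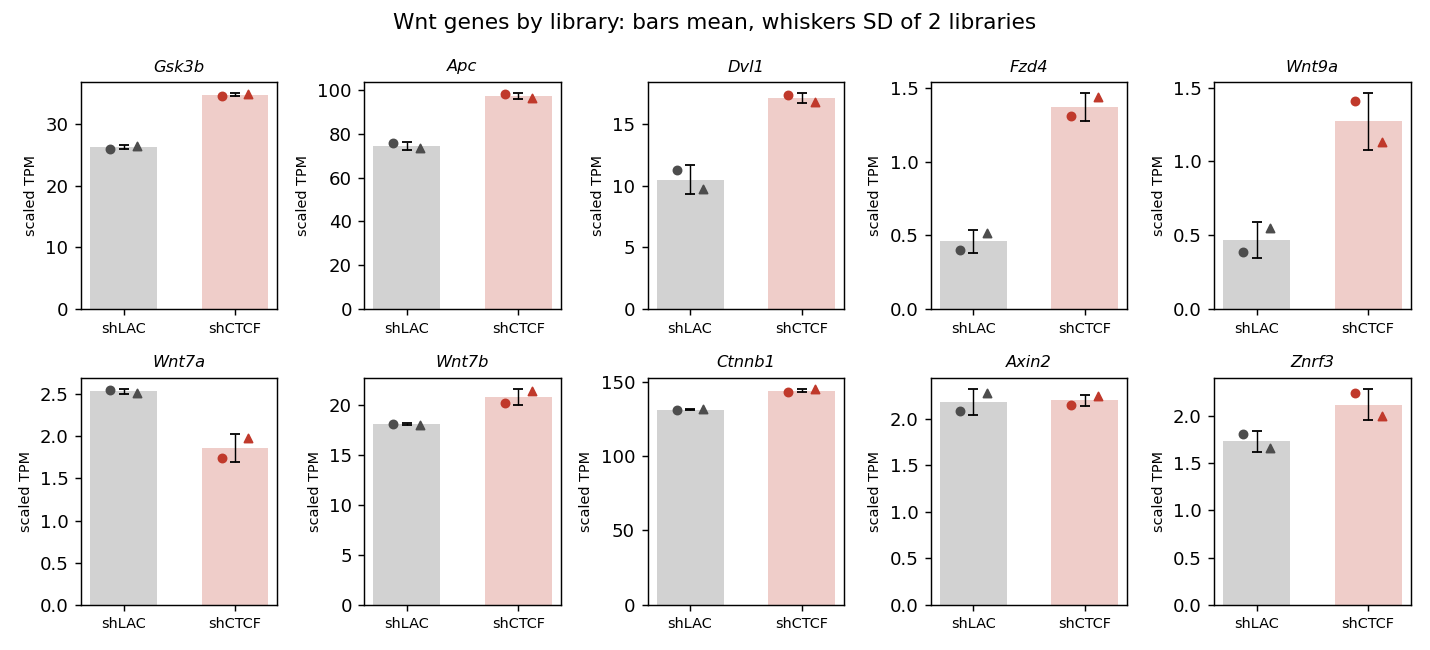
Scaled TPM of 10 Wnt genes on linear axes from 0, with circles for replicate 1 and triangles for replicate 2, bars for the mean and whiskers for the SD of 2 libraries. Gsk3b, Apc, Dvl1, Fzd4, Wnt9a, Wnt7b, Ctnnb1 and Znrf3 are higher in both shCTCF libraries, which the filter fixed for Fzd4 and Wnt9a. Wnt7a is lower in both, and the Axin2 groups overlap.

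The nuclear factors and feedback genes, which sit downstream, gave no call. Tcf7, Tcf7l1, Tcf7l2 and Lef1 lay between 0 and 0.639 scaled TPM and were not tested. Tcf7l2, the highest of them, was at 0.441 and 0.42 in shLAC and at 0.639 and 0.362 in shCTCF. Axin2, a standard readout of beta-catenin activity, was at 2.08 and 2.28 and at 2.15 and 2.24, and the groups overlapped. Its log2 fold change was 0.01 with a 95% interval from -0.17 to 0.19. Znrf3, a ubiquitin ligase that removes Frizzled receptors, was at 1.81 and 1.66 and at 2.24 and 2, both higher (log2 fold change 0.19, limma adjusted p = 0.274). Its relative Rnf43 stayed between 0.073 and 0.132 scaled TPM.

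**Figure D3:**
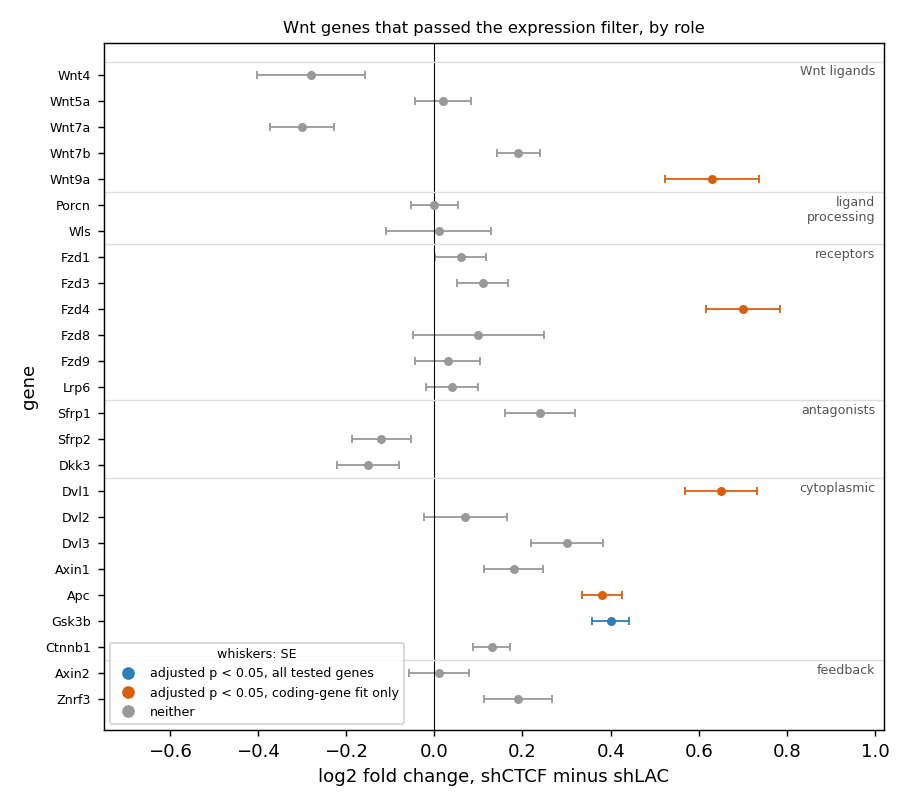
Log2 fold change, shCTCF minus shLAC, with its SE for the 25 Wnt genes that passed the expression filter, ordered by role. Blue marks the gene called over all tested genes (Gsk3b), orange those called in the coding-gene fit alone (Wnt9a, Fzd4, Dvl1 and Apc), and grey the rest.

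Other genes of the pathway moved in both directions. A list of 78 further genes held 59 tested ones, of which 3 rose, 5 fell and 51 did not pass in the coding-gene fit, against 6.07% of all genes called there. Over all tested genes 0 of the 59 passed by limma, and the coding-gene fit called 8. By limma 14 of the 59 had an unadjusted p below 0.05 over all tested genes, beside 2564 of all 12816. The median log2 fold change of the 59 was 0.04.

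In the R-spondin system, which amplifies Wnt signals by removing Znrf3 and Rnf43 from the membrane, the ligand gene Rspo2 fell and the receptor gene Lgr4 rose in the coding-gene fit. Rspo2 was at 3.59 and 3.83 scaled TPM in shLAC and at 1.73 and 2.31 in shCTCF, 54.6% of control (log2 fold change -0.64, limma adjusted p = 0.0193). Lgr4 was at 4.15 in both shLAC libraries and at 5.49 and 5.47 in shCTCF (log2 fold change 0.33, limma adjusted p = 0.0292). Rspo3 was at 3.74 and 3.3 and at 4.23 and 3.81 (log2 fold change 0.15, limma adjusted p = 0.31). The call of Rspo2 was lost without shCTCF replicate 1 (limma adjusted p = 0.0676), and that of Lgr4 without either shCTCF library (up to 0.168).

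Nkd2 and Dact2, cytoplasmic modulators that bind Dishevelled, fell in the coding-gene fit. Nkd2, a Naked cuticle antagonist, was at 1.07 and 1.73 scaled TPM in shLAC and at 0.402 and 0.486 in shCTCF, 31.7% of control (log2 fold change -0.72, limma adjusted p = 0.0316 in the coding-gene fit). It passed the filter through shLAC alone and so had to be lower. Of 31 coding genes under 1 TPM in both shCTCF libraries, 67.7% were called. Dact2, a Dapper protein, was at 8.84 and 8.21 and at 6.3 and 5.92 (log2 fold change -0.42, limma adjusted p = 0.0179). Their relatives Nkd1, Dact1 and Dact3 had log2 fold changes of 0.03, 0.11 and 0.09, and none passed. Apc2, the neuronal relative of Apc, was at 9.62 and 10.2 and at 11.9 and 13.3 and rose by 0.32 on the log2 scale in the coding-gene fit (limma adjusted p = 0.0475).

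Of the remaining lists, Gpc3, a glypican that binds Wnt proteins, fell by 0.42 on the log2 scale (limma adjusted p = 0.0438 in the coding-gene fit), from 2.98 and 3.59 to 2.12 and 2.27 scaled TPM. Celsr2, a planar polarity cadherin of neurons, rose by 0.35 there (limma adjusted p = 0.0387), from 7.26 and 6.91 to 8.78 and 9.8. Ctnnd1, p120-catenin, which stabilises cadherins, fell by 0.46 there (limma adjusted p = 0.0184), from 13.9 and 13.3 to 8.97 and 10.3. A predicted gene on its strand, Gm28635, overlaps it along 49327 bp and was at 0.97 and 0.04 TPM in shLAC and at 4.01 and 2.03 in shCTCF as deposited, so the division of reads between them is uncertain. The list also held Tcf4, a basic helix-loop-helix gene that is no TCF/LEF factor, which did not pass. The calls of Nkd2, Dact2, Ctnnd1 and Celsr2 were lost without either shCTCF library. Those of Apc2 and Gpc3 were also lost without shLAC replicate 1 and shLAC replicate 2, respectively (limma adjusted p up to 0.246 over these 6 genes).

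**Figure D4:**
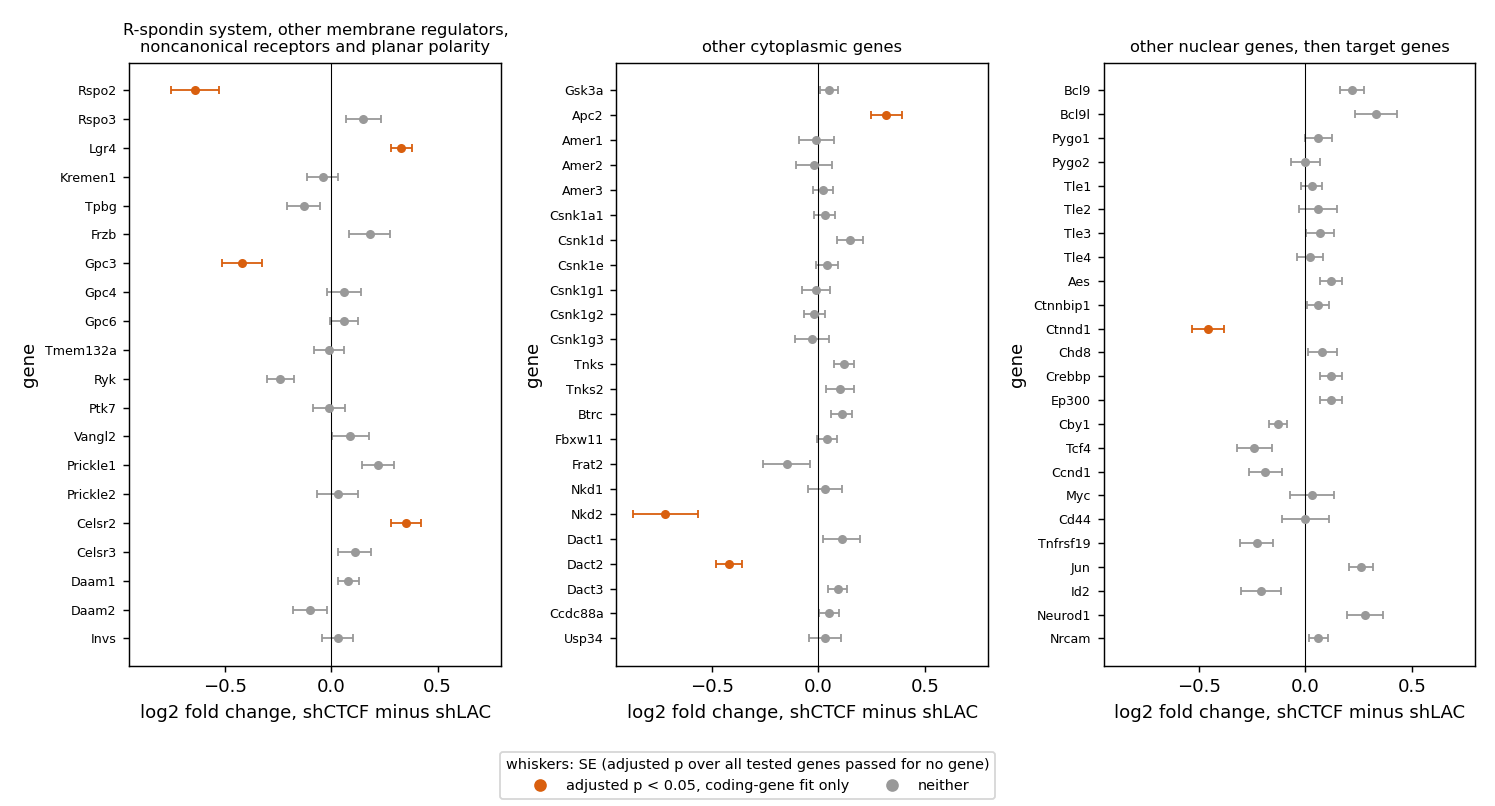
Log2 fold change with its SE for the 59 tested further pathway genes and for tested target genes that are on no other list. Orange marks the 8 genes called in the coding-gene fit, 3 higher and 5 lower, and none was called over all tested genes.

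Genes known as Wnt targets in other tissues gave no call in either fit. Of 23 listed, 11 were tested, with a median log2 fold change of 0.03. By limma 3 had an unadjusted p below 0.05 in the fit of all genes, and 6 in that of coding genes. In these fits 2564 of all 12816 and 2657 of all 11268 genes had one. Ccnd1, cyclin D1, was at 30.4 and 28.6 scaled TPM in shLAC and at 27.4 and 24.1 in shCTCF (log2 fold change -0.19, limma adjusted p = 0.271). Myc was at 4.55 and 5.62 and at 5.43 and 4.96, and the groups overlapped. Jun was at 7.36 and 7.2 and at 8.61 and 9.2 (log2 fold change 0.26, limma adjusted p = 0.0567 in the coding-gene fit). Fst, follistatin, was at 1.32 and 1.18 in shLAC and at 0.611 and 0.648 in shCTCF, 50.4% of control, with both shCTCF libraries lower. It was not tested, because its deposited TPM in shLAC replicate 2 was 0.98. These genes also answer to other signals.

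**Figure D5:**
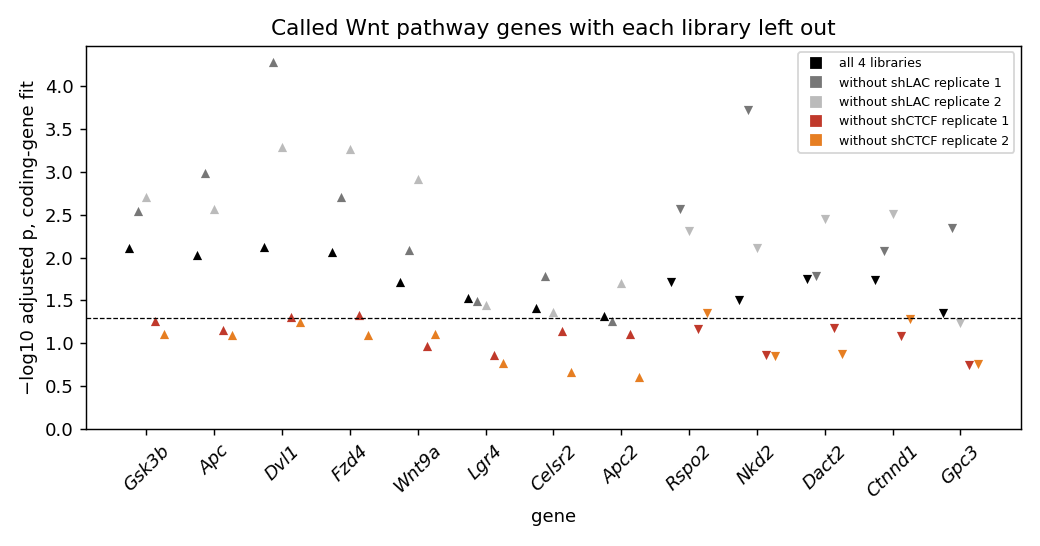
The −log10 of limma's adjusted p in the coding-gene fit for 13 called genes, with all 4 libraries and with each library left out, triangles up for higher and down for lower in shCTCF, and a dashed line at 0.05. Every gene drops below the line without at least 1 shCTCF library, and the direction stays the same in each fit shown. The loss is not particular to these genes, as fewer of all coding genes were called without either shCTCF library.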

How the data were processed

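RNA-seq libraries were made from total RNA of the cultures and sequenced as paired reads of 101 bases, per the labels' protocols. The deposited files hold TPM per Ensembl gene, 1 file per library, each summing to about 1000000. RSEM 1.2.28, CASAVA and mm10 are named in the submitters' processing notes, and neither strandedness nor the annotation release is recorded there. Without strand, antisense and overlapping genes cannot be separated. GENCODE vM21 matched 37060 of 37437 identifiers. Values were divided by median-ratio factors over genes with at least 1 TPM in all 4 libraries, and log2(TPM + 1) was fitted with limma 3.58.1 (R 4.3.3, trended prior, no covariate). As deposited, the median log2 fold change was 0.17. The coding-gene fit left out 13 satellite-like genes, listed by symbol. Fits were tested on simulated data. Count-based tools were not run, because the values are TPM.

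The genes, lists and fits were chosen with earlier results of these data known. The naming rule took Ctcf, every listed gene called in either fit, the 3 most abundant tested genes per role and the 6 largest changes per direction. All other tested Wnt genes were added. Alternatives were the values as deposited, pseudocounts 0.1 and 0.5, no filter, a mean of at least 5 TPM, a robust prior, the replicate number as a block, and leaving out 1 library at a time. The coding-gene fit with each library left out was added after seeing the data.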

Additional observations from a re-analysis of the deposited data

How the results depend on the processing

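Over all tested genes limma called 134 genes (47 higher, 87 lower), of which 1 of the 25 tested Wnt genes, 0 of 59 further pathway genes and 0 of 11 targets. As deposited the counts were 362 (246 higher, 116 lower), 3 and 1, and 1 Wnt gene when only those with 1 TPM or more in both shLAC libraries are counted. In the coding-gene fit they were 684 (287 higher, 397 lower), 5 and 8, and 3 Wnt genes when only those with 1 TPM or more in both shLAC libraries are counted. With the robust prior they were 317, 4 and 2. With no filter 24 genes and 0 Wnt genes were called, and with a mean of at least 5 TPM 61 and 0. The replicate numbers do not pair the samples by any label, and deviations of same-numbered libraries correlated at 0.0817 across genes. With the replicate block, 20 genes and 0 Wnt genes were called.

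With 1 library left out (the lone library of that group then borrows the spread of the other pair), the counts over all tested genes ranged from 12 to 99 and among Wnt genes from 0 to 1, and Ctcf ranged from -1.17 to -1.10. In the coding-gene fit, without shLAC replicate 1, shLAC replicate 2, shCTCF replicate 1 and shCTCF replicate 2 in that order, 995, 984, 174 and 71 genes were called, with 7, 6, 2 and 0 Wnt genes. Further pathway genes called there ranged from 0 to 8 and targets from 0 to 2. Sfrp2 moved from -0.12 to 0.00 as deposited. Changes of sign with 1 library left out were found for genes near 0: Porcn (-0.04 to 0.04), Wls (-0.14 to 0.16, -0.05 without shCTCF replicate 1), Fzd8 (-0.08 to 0.28), Fzd9 (-0.01 to 0.07), Dvl2 (-0.04 to 0.18) and Axin2 (-0.04 to 0.05). Pseudocounts changed no call of a named gene. Genes that missed the filter were not tested, and depth cannot be read from TPM.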

Other observations

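Other catenins, listed after the Wnt values were seen, include the alpha and delta relatives that link cadherins to actin. Of 9, 8 were tested, and 2 rose and 0 fell in the coding-gene fit, against 6.07% of all genes called there. Ctnnd1, p120-catenin, was counted with the further pathway genes instead, and it fell in that fit (log2 fold change -0.46, limma adjusted p = 0.0184). Ctnna2, the neuronal alpha-catenin, was at 35.1 and 34.2 scaled TPM in shLAC and at 44.6 and 44.1 in shCTCF (log2 fold change 0.35, limma adjusted p = 0.0111). Ctnnd2, the neuronal delta-catenin, was at 19.6 and 20.4 and at 23.8 and 24.4 (log2 fold change 0.26, limma adjusted p = 0.0348). Ctnna2 spans Lrrtm1 on the other strand and several predicted transcripts on its own, so its reads are uncertain. Over all tested genes neither passed (limma adjusted p = 0.059 and 0.0939). The coding-gene call of Ctnna2 was lost without either shCTCF library (limma adjusted p up to 0.0959), and that of Ctnnd2 without shLAC replicate 1 or either shCTCF library (up to 0.213). Ctnna1 and Jup had log2 fold changes of -0.06 and 0.01 and did not pass.

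A list of 19 noncanonical effector genes was also added after the Wnt values were seen. Of these, 17 were tested and 0 were called by limma in either fit, with a median log2 fold change of -0.01. In each fit 4 of the 17 had an unadjusted p below 0.05 by limma. This held for 2564 of all 12816 tested genes and for 2657 of the 11268 in the coding-gene fit. Rac1, a small GTPase of the planar polarity branch, was at 55.6 and 55.9 scaled TPM in shLAC and at 56.3 and 54.2 in shCTCF. Plcb4, a phospholipase of the calcium branch, was at 3.7 and 3.17 and at 4.56 and 4.61 (log2 fold change 0.34, limma adjusted p = 0.0565 in the coding-gene fit).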
